A study of Mus musculus with 36 samples.

Results

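The genes described here are 49 genes of mouse embryonic stem cells (mESCs) whose RNA was strongly raised by PD03, a small-molecule inhibitor of the MEK kinases. They were chosen on measured values. Counts were scaled to 1000000 counts per library (CPM), and a gene was taken where the mean with PD03 plus 0.5 CPM was at least 6 times the mean of the matching group without PD03 plus 0.5 CPM. This had to hold in all 4 pairs at 48 h (soft and stiff hydrogels, serum and serum + LIF), with at least 10 CPM in every group with PD03. Of 49671 genes in the table, 8587 reached 10 CPM in every group with PD03 and 50 passed both limits, which is 0.101% of all genes. Bhmt was then left out by name, as the rule also asked of Bhmt2, Fabp3, Fabp5 and the collagen genes, and 49 genes remained.

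The libraries came from wild-type mESCs of a 129 strain (129m wt), and no group carried a transgene or deletion. The substrates were StemBond hydrogels, polyacrylamide gels that tether fibronectin firmly, in a soft and a stiff form, and tissue culture plastic (TCP). All media held serum. Both hydrogels were sampled at 24 h with LIF, and at 48 h with no addition, with LIF, with PD03 and with both, while TCP was sampled at 48 h with LIF. Each of the 11 groups held 3 libraries except soft serum + PD03, which held 6, giving 36 libraries of 10405696 to 26635239 counts. Nothing in the labels says whether libraries of a group came from separate cultures, so p-values measure the spread between these libraries, which may be technical.

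MEK phosphorylates ERK, the last kinase of the cascade that FGF switches on in mESCs. ERK activity carries these cells out of naïve pluripotency, and MEK inhibition together with serum or LIF holds them in it. LIF activates the JAK kinases and the transcription factor STAT3.

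The labels were checked on lists of known genes. The summed level of 14 ERK target genes was 371 to 416 CPM in the libraries with PD03 and 1151 to 1368 CPM in those without, and Spry4, an ERK-induced inhibitor of the pathway, was at 0.198 to 1.35 CPM with PD03 and 102 to 143 CPM without. The 4 general pluripotency genes listed summed to 2205 to 2674 CPM in all libraries, and none of them was at 0 in any group. Genes of 2-cell-like cells summed to 2.08 to 15.3 CPM and those of fibroblasts to 26.0 to 99.8 CPM.

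By role the 49 genes fell into 10 of transcription, 9 metabolic enzymes, 7 of cytoskeleton and membrane, 6 of the cell surface and signalling, 5 of transport, 5 of early embryo and germline families, 2 of stress and autophagy and 2 secreted proteins. No role is given here for the other 3, 3830417A13Rik, Gm13580 and Gm53. The values that follow for PD03 chose the genes and are a description. The median over the 49 genes of the ratio with PD03 to without was 9.88, and in every one of the 49 the lowest library with PD03 was above the highest library without it, at either time and on any substrate. The genes together took 0.318% ± 0.0088 (SD, n = 3) of all counts on stiff and 0.304% ± 0.0093 (n = 6) on soft hydrogels in serum + PD03, and 0.348% ± 0.0053 and 0.333% ± 0.0102 (n = 3 each) in serum + LIF + PD03. In the 48 h hydrogel groups without PD03 the mean share was 0.0235% to 0.0280%.

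**Figure D1:**
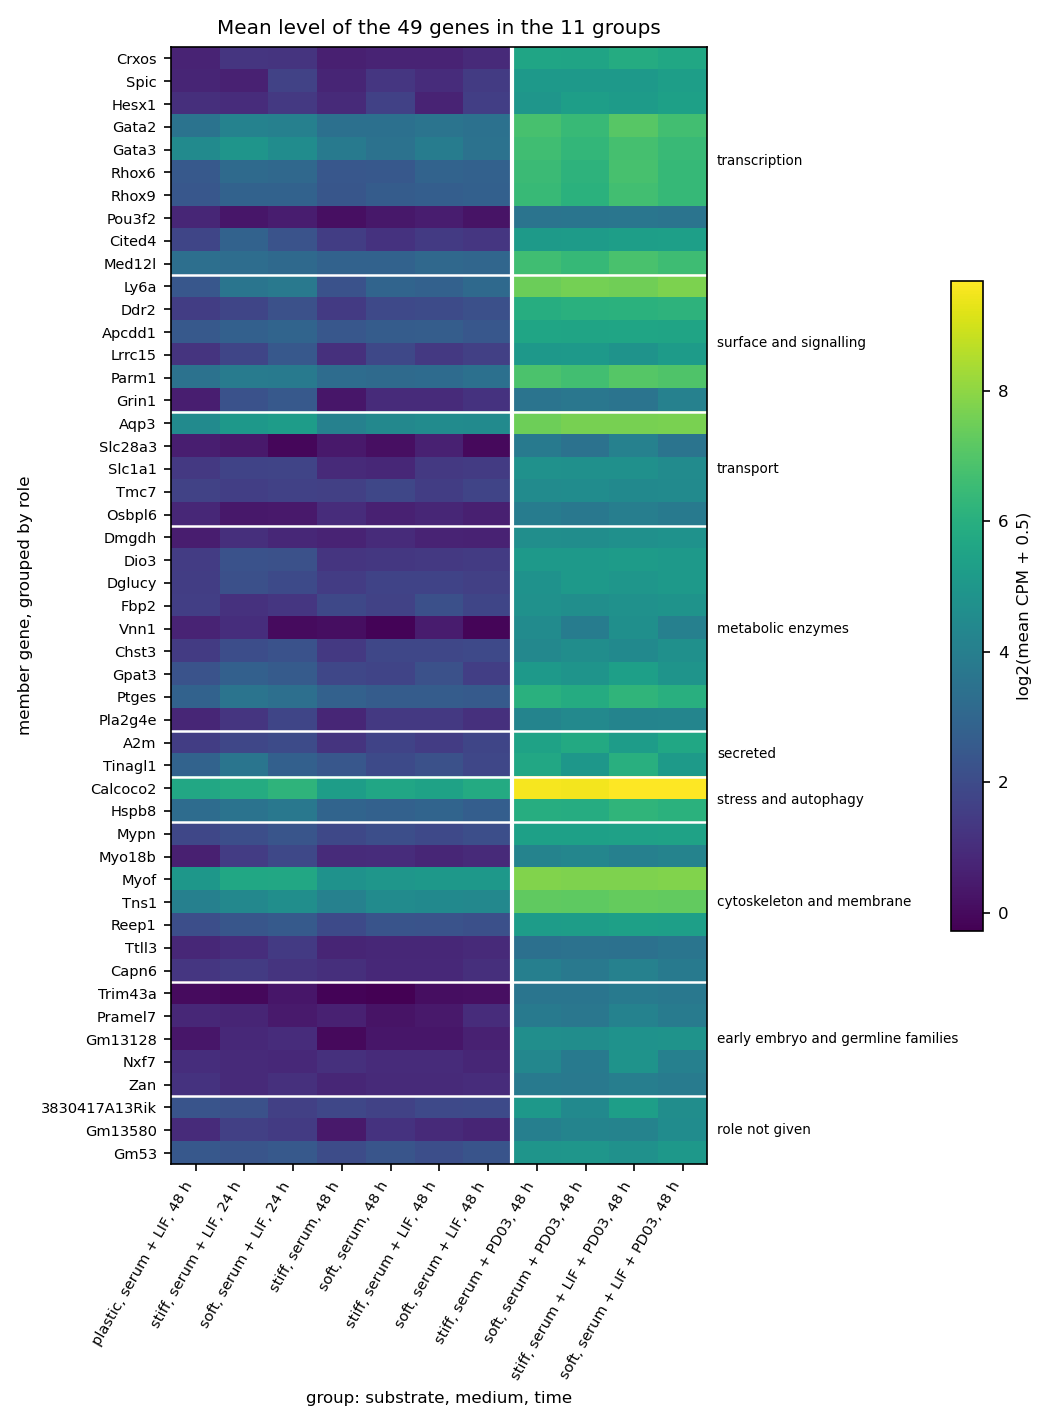
Mean level of each gene in each of the 11 groups, as log2(mean CPM + 0.5) in colour, with genes in rows grouped by role and groups in columns. The 4 columns on the right are the groups with PD03, where every gene is at 10 CPM or more.

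**Figure D2:**
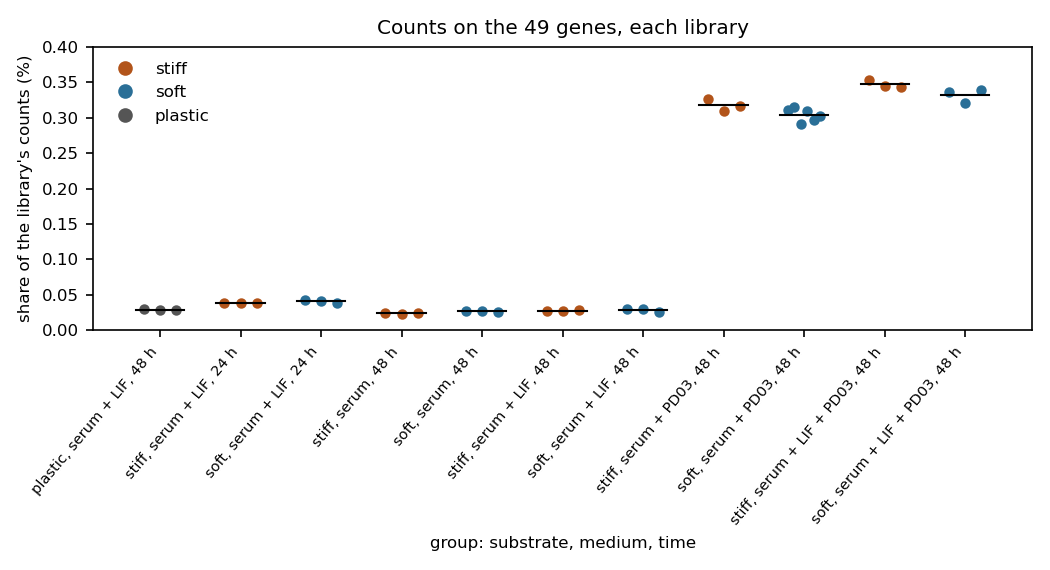
Share of each library's counts that fell on the 49 genes, in percent. Points are libraries, bars are group means, and colour marks the substrate, with all libraries with PD03 above 0.29% and all others below 0.05%.

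Among the transcription genes, Crxos, a homeobox gene of the early embryo, had the largest ratios, 27.2 to 35.2 over the 4 pairs. It was counted at 0.826, 1.34 and 0.943 CPM on stiff and 0.742, 1.08 and 1.62 CPM on soft hydrogels in serum. With PD03 these became 48.6, 48.9 and 46.0 CPM on stiff and 42.4 to 51.9 (median 45.1) CPM over the 6 soft libraries, and with LIF as well 63.7, 54.1 and 53.7 CPM on stiff and 51.8, 50.7 and 48.8 CPM on soft. All 48 h hydrogel libraries without PD03 had 0.742 to 1.64 CPM of Crxos and none overlapped those with PD03. Gata2, Med12l and Gata3 had the highest CPM of this group. Gata2 and Gata3 are zinc-finger factors of trophoblast and blood. Gata2 averaged 108 CPM over the groups with PD03 and 10.5 CPM over the matching groups, and Gata3 averaged 94.0 and 12.3 CPM. Med12l, which encodes a subunit of the Mediator complex, lay between 5.99 and 8.76 CPM in the 48 h hydrogel libraries without PD03 and between 77.6 and 118 CPM in those with it. Rhox6 and Rhox9, homeobox genes of the X-linked reproductive cluster, had ratios of 11.9 to 16.7 and 11.2 to 16.6. The others were Spic, an ETS-family factor of macrophages (ratios 13.8 to 19.7), Hesx1, a homeobox repressor of the forebrain and pituitary (12.8 to 21.9), Cited4, a partner of the CBP and p300 coactivators (12.2 to 16.7), and the neural POU factor Pou3f2 (8.75 to 10.9).

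The surface and signalling group was led by Ly6a, which encodes the GPI-anchored antigen Sca-1. Ly6a was counted at 8.54, 4.77 and 6.28 CPM on stiff and 8.08, 9.86 and 6.81 CPM on soft hydrogels in serum + LIF, against 197, 183 and 170.2 CPM and 224, 193 and 211 CPM once PD03 was added, and its 4 ratios were 23.9 to 36.5. The groups with and without PD03 were separated by a gap of 15.6-fold between the nearest 48 h libraries. Ddr2, a receptor tyrosine kinase for collagen, lay between 1.48 and 4.45 CPM at 48 h without PD03 and between 60.4 and 74.8 CPM with it, with ratios of 15.8 to 22.9. Parm1, a mucin-like membrane protein, was at 93.0 to 141 CPM with PD03. Lrrc15, a leucine-rich-repeat membrane protein, Apcdd1, a membrane inhibitor of Wnt signalling, and Grin1, the obligatory subunit of NMDA receptors, were lower, at 27.5 to 39.5, 39.6 to 50 and 9.31 to 18.1 CPM with PD03.

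Calcoco2, an autophagy receptor, was by far the most abundant of the 49 in CPM. It was counted at 36.6, 36.7 and 42.0 CPM on stiff and 50, 50.9 and 46.8 CPM on soft hydrogels in serum, at 778, 731 and 732 CPM on stiff with PD03, and at 639 to 782 (median 752) CPM over the soft libraries with PD03. Divided by exon length so that genes can be compared, its mean over the groups with PD03 was 479 CPM per kb, followed by Ly6a at 157, the water and glycerol channel Aqp3 at 107 and Rhox6 at 87.8 CPM per kb. The small heat shock protein Hspb8, the other gene of this group, was at 54.3 to 78.0 CPM with PD03.

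Of the cytoskeleton and membrane genes, Myof, which takes part in membrane repair, and Tns1, a focal adhesion protein, were the most abundant in CPM. Myof lay between 25.4 and 34.5 CPM in the 48 h hydrogel libraries without PD03 and between 207 and 236 CPM with it. Tns1 lay between 16.0 and 23.4 CPM without and between 141 and 163 CPM with PD03. Mypn, a sarcomere protein, Myo18b, an unconventional myosin of muscle, Reep1, which shapes the endoplasmic reticulum, Capn6, a calpain relative without protease activity, and Ttll3, a tubulin glycylase, had ratios between 6.12 (Ttll3) and 11.4 (Mypn). Ttll3 shares 283 exon bases, 5.61% of its exons, on the same strand with the abundant gene Arpc4, so that reads there cannot be assigned to 1 of them.

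The enzymes covered several pathways. Vnn1, a pantetheinase, had the largest ratios of them, 16.8 to 21.3. Dmgdh, which breaks down dimethylglycine in mitochondria, lay between 0.524 and 1.97 CPM in the 48 h hydrogel libraries without PD03 and between 21.1 and 30.6 CPM with it. It lies 0.13 kb from Bhmt2 and 36.5 kb from Bhmt, which were left out by name, and Bhmt itself was at 55.9 to 79.0 CPM with PD03 and 0.0668 to 1.49 CPM in the 48 h hydrogel libraries without. Dio3, which inactivates thyroid hormone, Ptges, a prostaglandin E synthase, Gpat3, an acyltransferase of triglyceride synthesis, Pla2g4e, of the cytosolic phospholipase family, Dglucy, the D-glutamate cyclase, Chst3, a chondroitin sulfotransferase, and Fbp2, the muscle fructose bisphosphatase, had ratios from 6.01 (Chst3) to 14.4 (Dio3).

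Transport genes other than Aqp3 were less abundant in CPM. The nucleoside transporter Slc28a3, the glutamate transporter Slc1a1, Osbpl6 of the oxysterol-binding family and Tmc7 were at 8.48 to 17.8, 20.7 to 28.4, 11.4 to 16.7 and 18 to 26.4 CPM with PD03. Both secreted proteins, the protease inhibitor A2m and the basement-membrane protein Tinagl1, were alike in CPM, with averages over the groups with PD03 of 46.4 and 45.6 CPM. In the early embryo and germline families, Gm13128 (Pramel30 in RefSeq) and Pramel7 belong to the PRAME-like family, Trim43a is a gene of the preimplantation embryo, Nxf7 belongs to the nuclear RNA export factors and Zan encodes the sperm protein zonadhesin. Gm13128 had ratios of 18.1 to 25.6, with 0.468 to 1.3 CPM at 48 h without PD03 and 20.5 to 29.7 CPM with it. Values of Gm13128, Pramel7, Trim43a, Ly6a, Rhox6 and Rhox9 are uncertain to the extent that reads from close copies were shared between them.

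Family relatives did not all move with the 49. Pramel5 had a median ratio of 8.0 and Pramel6 one of 5.64, but they averaged 4.56 and 6.26 CPM over the groups with PD03, under the limit of 10. Trim43b was at 3.23, Ly6g6e at 5.85 and Ly6e at 1.78. For Rhox5, an abundant gene of the Rhox cluster, the median ratio was 1.35, and for Gata6 and Gata4, factors of primitive endoderm, it was 1.25 and 0.649. Just inside the limit of 6 in the smallest of their 4 ratios were Chst3 (6.01), Grin1 (6.06), Fbp2 (6.08), Ttll3 (6.12) and Gm53 (6.22). Just outside were Sync (5.96), Prss35 (5.86), Alcam (5.80), Acta2 (5.79) and Tbx3 (5.77).

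The 4 groups with PD03 had much the same level of most of these genes. Group means with PD03 lay within 1.5-fold of each other in 42 of the 49, with a median span of 1.2-fold. The widest spans were those of Nxf7 (2.06-fold), Tinagl1 (2.04-fold), 3830417A13Rik (1.82-fold) and Vnn1 (1.73-fold). These 4 genes differed by substrate, as described next.

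Whether stiffness moved the 49 genes was tested within each medium as soft minus stiff, with edgeR's quasi-likelihood test across all 17702 genes that passed its filter on low counts, all 49 among them, and Benjamini-Hochberg adjustment at 0.05. The rule set the same limits on both substrates and did not choose a direction. At 48 h, however, stiff libraries were sequenced in pool 2 except 1 of 3 in serum + LIF, which was in pool 1, and soft libraries in pool 3 except 2 of 6 in serum + PD03, which were in pool 2. Substrate and pool are therefore nearly the same there, while all libraries at 24 h shared pool 1. Which library of a group was in which pool is not shown in the table, and all 45 possible assignments were fitted with pool as a term.

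In serum + PD03, 9 of the 49 genes were lower on soft hydrogels and 4 were higher, where 3.42% of all genes tested were lower and 2.13% higher. In serum + LIF + PD03, 11 were lower and 3 higher, against 4.82% and 2.80% of all genes. All 9 genes lower in the first medium were lower in the second (100% of 9 and 81.8% of 11), namely Tinagl1, Vnn1, 3830417A13Rik, Nxf7, Rhox6, Rhox9, Gata2, Gata3 and Med12l. A2m was the gene higher in both (25% of 4 and 33.3% of 3). The overlap between the 2 media over all genes was not counted, and the substrates differed in pool in nearly the same way in both. The median soft minus stiff difference over the 49 genes was -0.01 and -0.02 on the log2 scale, and 46 and 43 of them lay within 0.5 of 0. With pool as a term the number called was 4 to 12 without LIF and 1 to 10 with it over the assignments. Over all 17702 genes it was 276 to 678 and 246 to 724. Without the pool term 377 of all genes were higher and 605 lower, and with LIF 495 were higher and 853 lower. Without the first stiff library in serum + PD03, 8 of the 49 were called.

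**Figure D3:**
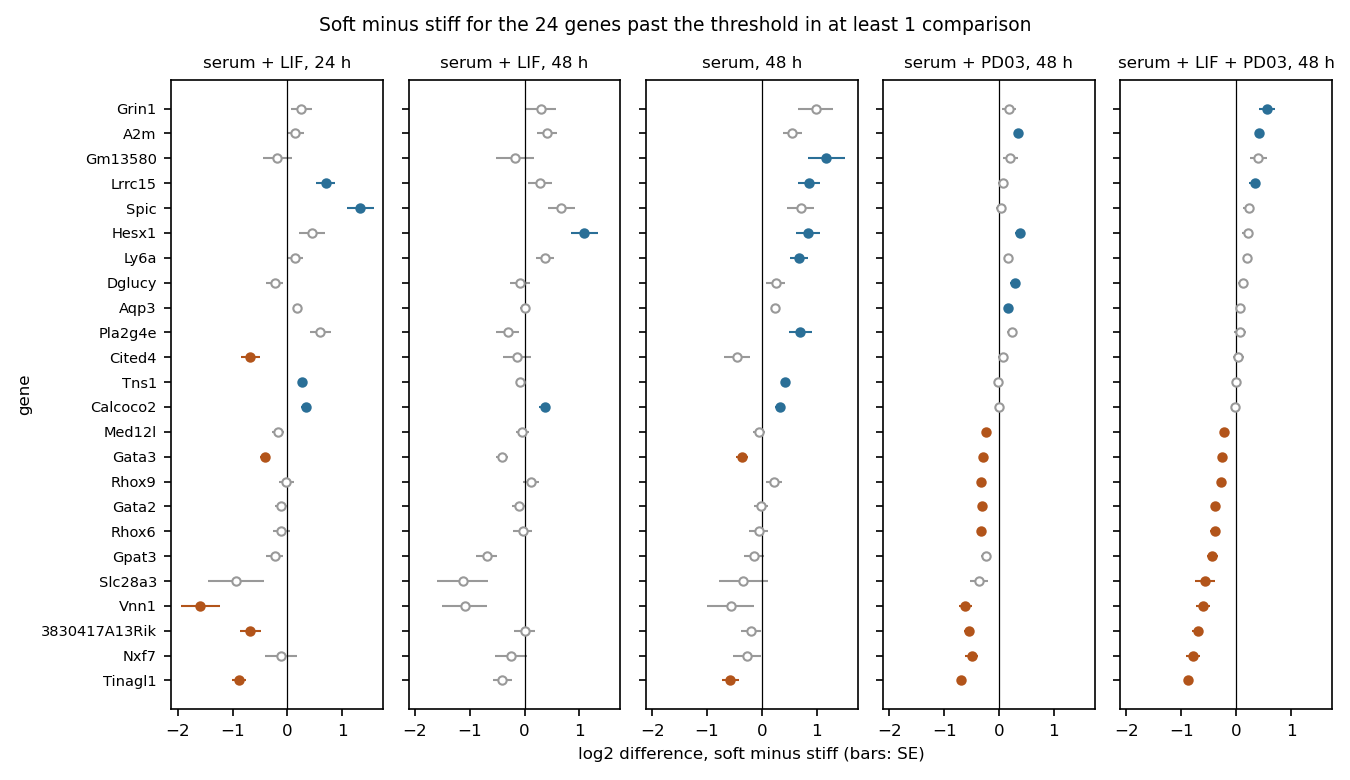
Soft minus stiff difference on the log2 scale, with its standard error as a bar, for the 24 genes past the threshold in at least 1 of the 5 media and times. Filled points passed the threshold (blue higher on soft, brown lower) and open grey points did not, with Tinagl1 to the left of 0 in all 5 panels.

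Tinagl1 (chr4:130164454-130175122, GRCm38, minus strand) was the gene of the 49 with the smallest adjusted p in both media with PD03. In serum + PD03 it was counted at 59.8, 47.9 and 47.5 CPM on stiff and 29.7 to 36.1 (median 30.9) CPM on soft hydrogels, and in serum + LIF + PD03 at 63.0, 66.9 and 62.8 CPM on stiff and 36.2, 34.0 and 34.5 CPM on soft. Every soft library was below every stiff library in each medium. The log2 differences were -0.70 ± 0.07 (SE; edgeR, adjusted p = 8.8e-10) and -0.87 ± 0.09 (adjusted p = 4.6e-11, edgeR). Both remained past the threshold under every pool assignment, alternative setting and left-out library tried, with an adjusted p of at most 0.000316. In bulk RNA, fewer cells that express a gene and less of its RNA per cell cannot be told apart.

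Vnn1 (chr10:23894688-23905343) was at 23.4, 22.8 and 21.5 CPM on stiff against 12.2 to 17.8 (median 13.9) CPM on soft hydrogels in serum + PD03, and at 25.3, 23.9 and 26.1 against 16.9, 15.1 and 17.2 CPM in serum + LIF + PD03. The substrates did not overlap in either medium, with log2 differences of -0.61 ± 0.12 and -0.61 ± 0.13 (SE; edgeR, adjusted p = 0.000243 and 0.00129). It was past the threshold in 33 and 20 of the 45 pool assignments (adjusted p up to 0.207 and 0.623), and kept the call with any 1 library left out. For 3830417A13Rik (chrX:64173548-64178778), stiff libraries were at 31.9, 30.8 and 33.2 CPM and soft ones at 19.1 to 26.2 (median 21.3) CPM in serum + PD03. With LIF added the stiff libraries were at 40.2, 38.2 and 39.3 CPM and the soft ones at 24.0, 24.7 and 23.3 CPM. Its log2 differences were -0.54 ± 0.09 and -0.70 ± 0.10 (SE; edgeR, adjusted p = 3.8e-05 and 2.01e-06), past the threshold in 43 and 38 assignments (adjusted p up to 0.0768 and 0.108). Nxf7 (chrX:135579555-135598777) was at 22.5, 17.4 and 18.7 CPM on stiff and 11.6 to 15.0 (median 14.0) CPM on soft hydrogels in serum + PD03. In serum + LIF + PD03 it was at 27.5, 29.2 and 27.2 CPM on stiff and 17.0, 14.9 and 16.4 CPM on soft, again without overlap. The log2 differences of Nxf7 were -0.50 ± 0.12 and -0.78 ± 0.13 (SE; edgeR, adjusted p = 0.00501 and 2.57e-05), past the threshold in 16 and 28 of the 45 assignments (adjusted p up to 0.286 and 0.123). The first was also lost without the first stiff library (adjusted p = 0.130).

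**Figure D4:**
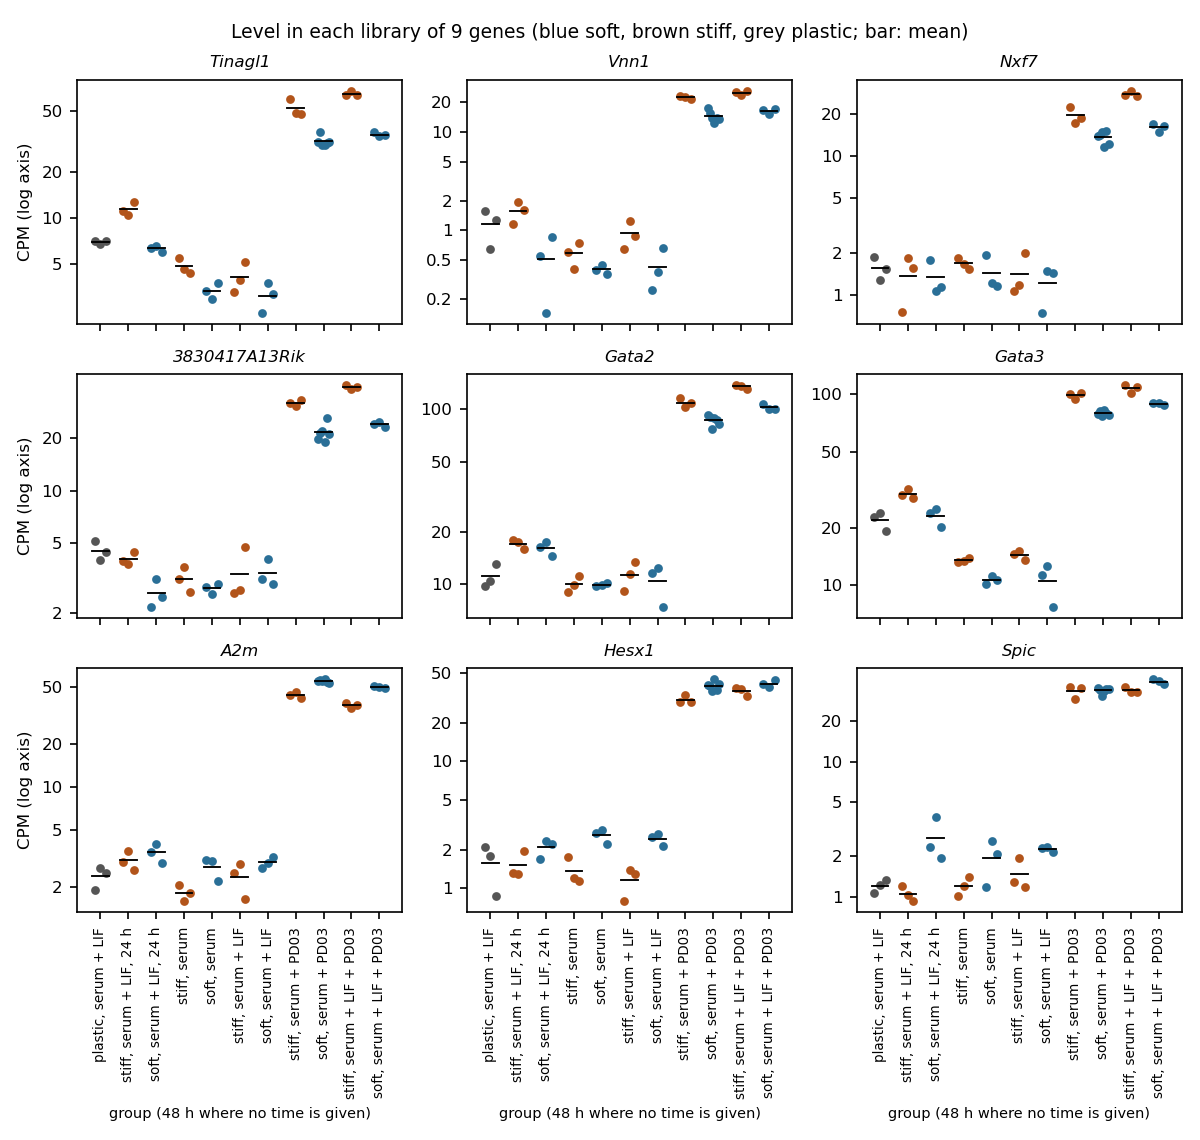
Level in CPM on a log axis of 9 genes in each library of the 11 groups, in blue for soft hydrogels, brown for stiff and grey for TCP, with a bar at the group mean. Tinagl1, Vnn1, Nxf7, 3830417A13Rik, Gata2 and Gata3 sit lower on soft than on stiff hydrogels with PD03, and A2m sits higher.

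The transcription genes that differed under PD03 were lower on soft hydrogels, apart from Hesx1. Gata2 was at 116, 102 and 108 CPM on stiff and 76.7 to 92.9 (median 87.8) CPM on soft hydrogels in serum + PD03 (-0.31 ± 0.07 on the log2 scale, SE; edgeR, adjusted p = 0.00224, and 0.0532 without the first stiff library). With LIF as well it was at 137, 136 and 131 CPM on stiff and 106, 101 and 100.1 CPM on soft (-0.38 ± 0.08, SE; edgeR, adjusted p = 0.000566). Gata3 was at 100.3, 95.1 and 102 CPM on stiff and 77.2 to 82.9 (median 79.4) CPM on soft in serum + PD03 (-0.29 ± 0.06, SE; edgeR, adjusted p = 0.00102). Its difference with LIF added, -0.26 ± 0.07, was past the threshold in none of the 45 pool assignments and was lost without the first or the third stiff or the third soft library (adjusted p = 0.0949, 0.0628 and 0.0580, edgeR). With pool as a term Gata2 passed the threshold in 21 of the 45 assignments in each medium (adjusted p up to 0.282 and 0.395) and Gata3 in serum + PD03 in 30 (up to 0.128, edgeR). None of the stiff libraries of Gata2 or Gata3 overlapped the soft ones in either medium. Rhox6 was at 95.5, 88.3 and 86.6 CPM on stiff and 64.7 to 76.2 (median 71.1) CPM on soft in serum + PD03, and Rhox9 was at 92.2, 83.3 and 84.1 and 60.3 to 73.7 (median 68.4) CPM. Neither gene overlapped between the substrates there or with LIF added. Over both media the Rhox genes and Med12l had differences from -0.39 (Rhox6 with LIF) to -0.23 (Med12l with LIF), each past the threshold in 3 to 30 of the assignments. Without the first stiff library Rhox6 in serum + PD03 had an adjusted p of 0.0878, and without the third stiff library Med12l there had one of 0.0526. In serum + LIF + PD03, Rhox9 was lost without the first stiff library or the first or second soft one (adjusted p = 0.0511 to 0.135) and Med12l without the second or the third stiff or the third soft library (adjusted p = 0.0541 to 0.0900, edgeR). Hesx1 was higher on soft hydrogels in serum + PD03, at 35.6 to 44.4 (median 39.8) CPM against 29.2, 33.0 and 29.5 CPM on stiff (0.39 ± 0.09, SE; edgeR, adjusted p = 0.00285), with no overlap of the libraries. With pool as a term it passed in 24 of the 45 assignments (adjusted p up to 0.261, edgeR). With LIF added its difference was 0.21 ± 0.10 (edgeR, adjusted p = 0.21).

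A2m (chr6:121635376-121679227) was higher on soft hydrogels, at 53.4 to 56.5 (median 54.7) CPM against 43.5, 45.6 and 41.7 CPM on stiff in serum + PD03 and at 50.7, 50.1 and 48.8 against 38.8, 35.8 and 37.5 CPM in serum + LIF + PD03. No library of one substrate overlapped the other. The log2 differences were 0.35 ± 0.07 and 0.43 ± 0.08 (SE; edgeR, adjusted p = 0.000516 and 0.00011), past the threshold in 44 and 40 of the 45 pool assignments (adjusted p up to 0.0535 and 0.0929) and with any library left out. The remaining calls with PD03 were less stable. Dglucy (0.29 ± 0.08, adjusted p = 0.0213) and Aqp3 (0.16 ± 0.05, adjusted p = 0.045, edgeR) were higher on soft in serum + PD03. Dglucy was at 31.9 to 35.2 (median 32.8) CPM on soft and 27.6, 26.6 and 28.5 CPM on stiff, and passed in 3 of the 45 pool assignments, and was lost without any 1 of the 3 stiff libraries or without the fourth soft one (adjusted p = 0.0506 to 0.122). Aqp3 was at 179.7 to 231 (median 198) CPM on soft and 181, 178 and 184 CPM on stiff, with overlap, and was past the threshold in 1 of 5 alternative settings and 12 pool assignments. It was kept only without the first or sixth soft library (adjusted p = 0.0533 to 0.171 without any of the others).

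In serum + LIF + PD03, Grin1 was at 18.1, 17.0 and 14.8 CPM on soft and 11.3, 10.3 and 12.3 CPM on stiff hydrogels (0.57 ± 0.15, SE; edgeR, adjusted p = 0.00839), and Lrrc15 at 33.7, 39.5 and 34.2 CPM on soft and 27.5, 29.1 and 29.0 CPM on stiff (0.34 ± 0.10, adjusted p = 0.0276, edgeR). Grin1 was lost without the second stiff or first soft library (adjusted p = 0.0697 and 0.0551), and Lrrc15 kept its call only without the first soft library (0.05 to 0.222 without any of the others). Gpat3 and Slc28a3 were lower on soft, by differences of -0.43 ± 0.10 (adjusted p = 0.00304) and -0.57 ± 0.18 (adjusted p = 0.0415, edgeR). Gpat3 had an adjusted p of 0.0536 without the second soft library, and Slc28a3 was lost without any 1 of the 6 libraries (0.0670 to 0.205). These 4 genes passed in 3 to 6 of the 45 pool assignments. In all, 17 of the 49 genes passed the threshold in at least 1 medium with PD03, and no gene passed it in opposite directions in any of the 5 stiffness comparisons. A count over several comparisons grows with their number, and the matching share of all genes was not counted.

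Several of the most abundant genes did not pass the threshold in either medium with PD03. For Calcoco2 the log2 differences were -0.01 ± 0.07 and -0.01 ± 0.08, for Myof -0.03 ± 0.04 and 0.07 ± 0.05, and for Tns1 -0.02 ± 0.05 and -0.01 ± 0.05 (SE). Of the 5 genes with the largest PD03 ratios, Vnn1 was called lower on soft, as given above, and the other 4 were not called. Their differences were for Crxos -0.04 ± 0.08 and -0.17 ± 0.09, for Ly6a 0.16 ± 0.07 and 0.20 ± 0.08, and for Gm13128 -0.04 ± 0.10 and 0.04 ± 0.12. For Ddr2 they were 0.14 ± 0.07 and 0.07 ± 0.07.

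On the X chromosome lie 5 of the 49 genes (10.2%, against 3.55% of the genes tested), namely 3830417A13Rik, Nxf7, Rhox6, Rhox9 and Capn6. All of these except Capn6 were called lower on soft hydrogels in both media with PD03, and the difference of Capn6 was -0.25 ± 0.12 and -0.24 ± 0.14 (SE). Of the 627 X-linked genes tested, 35 (5.58%) were lower on soft with PD03 and 59 (9.41%) with LIF as well, with medians of -0.01 and -0.02.

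Other gene groups differed between the substrates in the same libraries. Substrate and pool nearly coincide there, and calls in these groups were not looked at with pool as a term. Of 11 trophectoderm genes, among them Gata3, 8 were lower and none higher on soft hydrogels in each medium with PD03. Without Gata3 their summed level was 716 to 811 CPM on stiff and 459 to 529 CPM on soft in serum + PD03, and 934 to 991 CPM and 515 to 539 CPM with LIF, with none of the 10 at 0 in any group. In serum + LIF + PD03 the keratin Krt8 was at 354 ± 10 CPM on stiff and 175 ± 6.55 CPM on soft hydrogels (SD, n = 3), while with PD03 the defining factors Cdx2 and Eomes were at 3.91 to 10.5 and 1.77 to 3.95 CPM. Of 13 tested targets of SRF and YAP, factors that respond to the cytoskeleton, 11 were lower and none higher in each medium, with sums over 14 listed genes of 1036 to 1207 CPM on stiff and 713 to 759 CPM on soft. Fibroblast genes summed to 75.9 to 99.8 CPM on stiff and 34.2 to 48.5 CPM on soft, with 2 of 7 tested genes lower and none higher in each medium. For primitive endoderm genes the summed level in the media with PD03 was 531 to 656 CPM on stiff and 330 to 374 CPM on soft, with 2 of 12 tested genes lower and 1 higher in each medium and 1 of 14 listed genes at 0 in all libraries of each group. Naïve pluripotency genes were higher on soft in 7 of 15 (serum + PD03) and 10 of 15 (serum + LIF + PD03), with none lower. The part of these groups in the differences of the 49 genes was not tested.

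Promoter sequence is shown for 4 genes called by substrate under PD03, 2 lower on soft (Tinagl1 and 3830417A13Rik) and 2 higher (Aqp3 and Grin1). The Aqp3 call held in only 1 of 5 alternative settings, as given above. The windows are the 150 bases before the start site in RefSeq (GRCm38.p6), written 5′ to 3′ on the gene's strand, with each CG in capitals. For Tinagl1 the outer of 2 start sites is used, and the 150 bases before the inner one hold 12 CG.
Tinagl1 (chr4:130175123-130175272, minus strand): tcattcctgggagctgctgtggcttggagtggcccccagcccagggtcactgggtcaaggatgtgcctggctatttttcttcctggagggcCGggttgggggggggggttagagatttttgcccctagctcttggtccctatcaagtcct
3830417A13Rik (chrX:64173398-64173547, plus strand): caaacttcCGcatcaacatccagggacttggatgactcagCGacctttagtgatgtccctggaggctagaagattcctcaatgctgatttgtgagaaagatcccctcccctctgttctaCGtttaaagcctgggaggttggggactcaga
Aqp3 (chr4:41098184-41098333, minus strand): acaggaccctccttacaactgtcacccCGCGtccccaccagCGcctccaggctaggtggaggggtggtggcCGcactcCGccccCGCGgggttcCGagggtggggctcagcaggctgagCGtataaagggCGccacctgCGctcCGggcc
Grin1 (chr2:25319188-25319337, minus strand): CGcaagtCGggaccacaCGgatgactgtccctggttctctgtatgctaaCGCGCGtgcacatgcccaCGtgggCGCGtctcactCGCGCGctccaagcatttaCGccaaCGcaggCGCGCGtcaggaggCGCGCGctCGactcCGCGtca
Tinagl1 holds 1 CG and 3830417A13Rik 3, while Aqp3 holds 12 and Grin1 23. These 4 were picked after their values were seen, and do not stand for the others. Of the genes lower on soft with PD03, Gata2 holds 14 and 17 CG before its 2 starts, Gpat3 13, Gata3 9, Med12l 8, Slc28a3 3 and Nxf7 1, and of those higher, Lrrc15 holds 8, Dglucy 2 and Hesx1 0. The counts of the directions overlap and no comparison between them was tested.

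Windows of 250 bases before to 50 bases after the start were found for 40 of the 49 genes. The median ratio of observed to expected CpG was 0.501 in them and 0.414 over 26985 other genes. These other genes were taken whether expressed or not, while the 49 had to reach 10 CPM with PD03. The shares that follow are therefore not matched for expression. The GC box (letters GGGCGG, either strand, for all motifs here) was in 24 of 40 windows (60%) against 38.2% of other genes. TEAD letters (CATTCC) were in 9 (22.5% against 16.6%), AP-1 letters (TGANTCA) in 5 (12.5% against 8.97%) and STAT letters (TTCNNNGAA) in 2 (5.0% against 9.56%), and none of these motifs is contained in another. ETS letters (CCGGAAGT) were in none of the 40, against 4.31% of other genes, which says only that these exact letters are not in these windows.

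Without PD03 the 49 genes were low, but some differed by substrate. At 24 h in serum + LIF, where pool cannot differ between substrates, 4 were higher on soft hydrogels and 5 lower, against 1.03% and 2.52% of all genes tested. Spic was at 2.34, 3.90 and 1.93 CPM on soft and 1.21, 1.04 and 0.932 CPM on stiff (1.33 ± 0.24, SE; edgeR, adjusted p = 0.000204), without overlap. Tinagl1 was lower on soft, at 6.38, 6.60 and 6.05 against 11.1, 10.5 and 12.8 CPM (-0.89 ± 0.13, SE; edgeR, adjusted p = 1.69e-06). Spic and Tinagl1 kept their calls under all settings and left-out libraries. The pool term could not alter these differences, since all libraries at 24 h shared a pool. Under PD03 the differences of Spic were 0.04 ± 0.09 and 0.23 ± 0.10 and did not pass the threshold. Vnn1 was at 0.539, 0.142 and 0.846 CPM on soft and 1.16, 1.93 and 1.60 CPM on stiff at 24 h (-1.59 ± 0.35, SE; edgeR, adjusted p = 0.00279, and 0.0733 without the second soft library). Its soft libraries were all below 1 CPM, where counts are few. Gata3 was at 23.8, 25.2 and 20.2 CPM on soft and 29.6, 31.8 and 28.6 CPM on stiff (-0.41 ± 0.09, adjusted p = 0.00174, edgeR, and 0.0807 without the third soft library). Neither gene overlapped between the substrates. In the same libraries 5 of the 11 trophectoderm genes were lower on soft and none higher, with sums without Gata3 of 228 to 253 CPM on soft and 349 to 400 CPM on stiff, and their part in these differences was not tested.

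The other calls at 24 h rested more on single libraries. Cited4 was at 4.76, 5.11 and 3.26 CPM on soft and 5.09, 8.22 and 6.92 CPM on stiff (-0.67 ± 0.18, adjusted p = 0.0155, edgeR) and was lost without the second or the third stiff or the third soft library (adjusted p = 0.0535 to 0.228). For 3830417A13Rik soft libraries were at 2.16, 3.12 and 2.48 CPM and stiff ones at 3.98, 3.81 and 4.44 CPM (-0.67 ± 0.19, adjusted p = 0.0276, edgeR), a call kept only without the second soft library (0.0513 to 0.152 without any of the others). Lrrc15 was higher on soft, at 4.67, 6.32 and 4.23 CPM against 3.32, 2.92 and 2.93 CPM on stiff (0.70 ± 0.17, adjusted p = 0.00954, edgeR), and lost without the third stiff or second soft library (adjusted p = 0.0514 and 0.195). So was Calcoco2, at 77.1, 77.6 and 65.4 CPM against 54.5, 59.6 and 56.9 CPM on stiff (0.33 ± 0.09, adjusted p = 0.0179, edgeR), kept only without the second stiff or the third soft library (0.0613 to 0.127 otherwise). Tns1 was at 24.3, 26.1 and 24.0 CPM on soft and 20.4, 21.3 and 19.1 CPM on stiff (0.27 ± 0.07, adjusted p = 0.02, edgeR), lost without the third stiff or the first or second soft library (adjusted p = 0.0513 to 0.163). The count of 9 became 4 without the third stiff and 5 without the second soft library.

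In serum at 48 h, 7 genes were higher on soft hydrogels and 2 lower, against 2.08% and 2.77% of all genes. Tns1 was at 22.7, 22.3 and 23.4 CPM on soft and 16.5, 16.0 and 17.7 CPM on stiff (0.42 ± 0.07, SE; edgeR, adjusted p = 4.49e-05), and this was the only call of the 9 kept under every setting, left-out library and pool assignment. Ly6a was at 7.56, 7.56 and 6.19 CPM on soft and 4.84, 3.14 and 4.85 CPM on stiff (0.68 ± 0.17, adjusted p = 0.00827, edgeR, and 0.0703 without the second stiff library). Higher too were Calcoco2 (0.34), Hesx1 (0.84), Lrrc15 (0.86), Pla2g4e (0.70) and Gm13580 (1.17), and lower were Tinagl1 (-0.57) and Gata3 (-0.36). Each of these 7 was past the threshold in 0 to 25 of the 45 pool assignments and was lost without at least 2 of the 6 libraries (adjusted p = 0.0505 to 0.215). The count of 9 became 4 without the first stiff, 3 without the second stiff, 5 without the first soft and 2 without the second soft library. In these libraries 5 of 11 trophectoderm genes were lower and 1 higher on soft, with sums without Gata3 of 150 to 168 CPM on soft and 190 to 203 CPM on stiff. Of the SRF and YAP targets 9 of 13 were lower and of the naïve pluripotency genes 12 of 15 higher, and the part of these groups was not tested. Calls in these groups were not looked at with pool as a term.

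In serum + LIF at 48 h, Calcoco2 and Hesx1 were higher on soft and no gene was lower, against 0.446% and 0.333% of all genes. Hesx1 was at 2.53, 2.67 and 2.16 CPM on soft and 0.790, 1.38 and 1.29 CPM on stiff (1.09 ± 0.25, SE; edgeR, adjusted p = 0.0169), without overlap. Calcoco2 was at 64.2, 58.5 and 43.8 CPM on soft and 43.1, 44.9 and 43.7 CPM on stiff, with overlap (0.36 ± 0.09, adjusted p = 0.0398, edgeR). With pool as a term Hesx1 passed the threshold in 2 of 45 assignments and Calcoco2 in none. Hesx1 was kept only without the second stiff or the third soft library (0.0552 to 0.121 otherwise) and Calcoco2 only without the third soft library (0.0553 to 0.312 otherwise). Unadjusted p was under 0.05 for 11 of the 49 genes, against 10.9% of all genes, and DESeq2 called 2 higher and 2 lower, against 1.41% and 0.686%.

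Over the 5 stiffness comparisons, 24 of the 49 genes passed the threshold at least once, Tinagl1 and Gata3 in 4 of them, and 25 in none. The share of all genes tested that passed at least once was not counted. Calcoco2 was called higher on soft in all 3 comparisons without PD03 and in neither with it. Whether a soft minus stiff difference itself depends on PD03 was not tested, for this or any other gene.

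Time and TCP were compared as a description, since the 24 h and TCP libraries were in another pool than most hydrogel libraries at 48 h. The rule also used the 48 h serum + LIF values as divisors, which favours genes that are low there. In serum + LIF, 42 of the 49 genes had a higher mean at 24 h than at 48 h over the hydrogels, with a median ratio of 1.25, and 14 had a ratio of 1.5 or more, where over all 17702 genes tested 60.3% were higher at 24 h, the median was 1.04 and 4.77% reached 1.5. Grin1 had the highest, 2.46, with 3.17, 4.21 and 5.10 CPM on stiff and 6.92, 4.90 and 3.75 CPM on soft at 24 h. At 48 h it was at 1.22, 1.52 and 1.60 CPM on stiff and 1.73, 2.11 and 1.44 CPM on soft. Cited4 (2.37), Tinagl1 (2.28) and Gata3 (2.08) followed, and Fbp2 had the lowest ratio (0.577). The ratio of TCP to stiff hydrogels in serum + LIF at 48 h ran from 0.661 (Fbp2) and 0.672 (Pla2g4e) to 1.51 (Gata3) and 1.62 (Tinagl1). Its median was 1.01, with 25 of the 49 above 1, against 0.964 and 36.9% over all genes tested. The genes together took 0.0386% and 0.0406% of counts on stiff and soft hydrogels at 24 h and 0.0287% on TCP.

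The effect of LIF on the 49 genes was tested where PD03 was present. The rule used these groups, with the same limits with and without LIF, and did not choose a direction of the LIF difference. On soft hydrogels 2 genes were higher with LIF, Parm1 and Rhox9, and none was lower, against 0.0395% and 0.0678% of all genes. On stiff hydrogels 3 were higher, Nxf7, Gata2 and Hspb8, and none was lower, against 0.294% and 0.220%. Unadjusted p was under 0.05 for 16 and 17 of the 49, against 8.08% and 8.66% of all genes. DESeq2 called 3 and 5 higher and none lower, against 0.123% and 0.807% of all genes higher and 0.164% and 0.529% lower. Most genes lay on the same side, with 42 of 49 above 0 on soft and 43 on stiff and medians of 0.12 and 0.15 on the log2 scale, against -0.01 and 0.00 over all genes tested. The 49 genes were measured in the same libraries, so their signs are not separate observations.

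**Figure D5:**
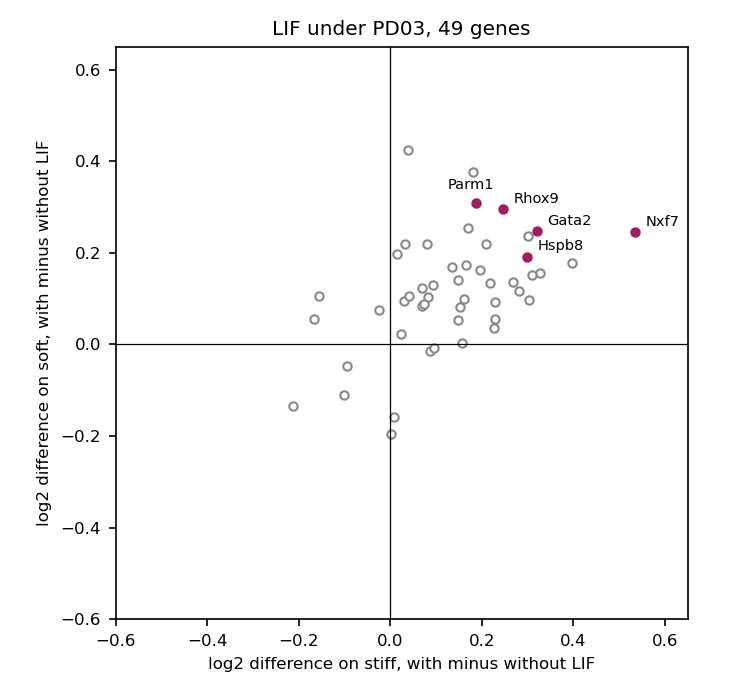
Log2 difference with minus without LIF in the presence of PD03 for the 49 genes, on stiff hydrogels (horizontal) and soft hydrogels (vertical). Filled points passed the threshold on at least 1 substrate, and most points lie in the upper right, between 0 and 0.4 on both axes.

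Parm1 was at 121, 124 and 126 CPM with LIF and 93.0 to 106 (median 99.4) CPM without on soft hydrogels (0.31 ± 0.07, SE; edgeR, adjusted p = 0.0299), and Rhox9 at 82.4, 75.7 and 92.4 CPM with and 60.3 to 73.7 (median 68.4) CPM without (0.30 ± 0.06, adjusted p = 0.0327, edgeR). On stiff hydrogels, Hspb8 was at 70.8, 75.3 and 78.0 CPM with LIF and 60, 62.3 and 61.2 CPM without (0.30 ± 0.07, SE; edgeR, adjusted p = 0.0185), Gata2 at 137, 136 and 131 CPM with and 116, 102 and 108 CPM without (0.32 ± 0.08, adjusted p = 0.0431, edgeR) and Nxf7 at 27.5, 29.2 and 27.2 CPM with and 22.5, 17.4 and 18.7 CPM without (0.53 ± 0.13, adjusted p = 0.0416, edgeR). None of these libraries overlapped between media. All 5 calls were close to the threshold, and each was lost without any of several libraries. On soft, Rhox9 was lost without 6 of 9 libraries (adjusted p = 0.0534 to 0.598) and Parm1 without 7 (0.0538 to 0.238). With pool as a term Rhox9 passed in 10 and Parm1 in 11 of the 45 assignments (adjusted p up to 0.256 and 0.217, edgeR). On stiff hydrogels Gata2 passed in 36, Nxf7 in 43 and Hspb8 in 45 of them. On stiff, each gene was lost without 5 of 6 libraries, Gata2 with 0.113 to 0.285, Nxf7 with 0.113 to 0.316 and Hspb8 with 0.0633 to 0.157. A fit of the 2 stiff groups with PD03 alone called 15 genes, 14 of them higher with LIF, where 1.85% of all genes in that fit were higher and 0.793% lower. On stiff hydrogels 2 of the 11 trophectoderm genes were also higher with LIF and none lower, and their part in these differences was not tested.

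Whether the soft minus stiff difference under PD03 depends on LIF was tested as an interaction. None of the 49 genes passed the threshold by edgeR, where 0.00565% of all genes did, no unadjusted p was under 0.05, against 4.69% of all genes, and DESeq2 called none with 1 unadjusted p under 0.05. The estimates ran from -0.29 (Nxf7) to 0.39 (Grin1) on the log2 scale. For Tinagl1 the interaction was -0.17 ± 0.11 (SE), a difference that was not detectable with these libraries.

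In the genome the 49 genes lie on 18 chromosomes, 47 of them are annotated as protein coding, and few are neighbours. Rhox6 and Rhox9 are 69.2 kb apart on chromosome X, Calcoco2 and Gm53 are 139 kb apart on chromosome 11, and Dmgdh adjoins the Bhmt genes on chromosome 13. Calcoco2 and Gm53 were far apart in level, 479 and 7.51 CPM per kb with PD03, and Gm53 was not called by substrate in any comparison. Exons overlap a gene on the opposite strand over 31.9% of Slc1a1, 30.0% of Gpat3, 15.3% of Med12l and 13.5% of Grin1, and since the strand setting of the counting is not given in the sources used here, reads there cannot be assigned to a strand. The overlapping genes were at 9.30 CPM or less with PD03, Igsf10 opposite Med12l being the highest.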

How the data were processed

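RNA was lysed in RLT buffer, purified on RNeasy columns with DNA digestion, and made into libraries with NuGen kits. The authors aligned reads with STAR 2.5.2a to GRCm38 (mm10 in the submitters' processing notes) and counted them per Ensembl gene with HTSeq, and the deposited table holds raw counts per gene and library. The notes also name DESeq. The strand setting of the counting is not given in the sources used here. All columns matched a group of the labels, with no replicate number, so library numbers here only name columns. The 45 pairs of libraries within groups all differed by more than sampling noise (chi-square per degree of freedom of 2.22 to 13.4).

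Levels are CPM, the count divided by the column total and multiplied by 1000000. Tests used edgeR 4.0.16 in R 4.3.3 (filterByExpr, TMM scaling, 1 quasi-likelihood fit over all 36 libraries and 11 groups) with Benjamini-Hochberg adjustment over 17702 genes, and differences are log2 fold changes with standard errors. Alternatives were DESeq2 1.42.0, RLE scaling, library totals alone, no filter, only the groups compared, each library left out and sequencing pool as a term, besides other limits in the rule. Scripts were tested on simulated counts. Column totals of 10405696 to 26635239 counts set the precision.

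The 49 genes, their roles and the gene lists were chosen with earlier results of these data known. Values of single libraries or their range are given for the 8 genes with the highest CPM with PD03 and the 5 with the largest ratios. They are also given for up to 4 per direction in the 24 h and both PD03 stiffness comparisons, those called for LIF and some others. The 5 genes with the smallest ratios and the 5 just outside the limit are named with their ratios, and others are given by role, range and count. Promoters and coordinates are RefSeq (GRCm38.p6) and the annotation of the same build.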

Additional observations from a re-analysis of the deposited data

Results flagged for a closer look

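In soft serum + PD03, the one group with 6 libraries, each of the 49 genes and their summed share of counts were looked at for a library far from the others, by the gap between an extreme library and its nearest neighbour as a part of the whole range. Of 50 such sets of values 4 were past Dixon's 95% limit for 6 libraries, where chance flags about 1 in 20. Tinagl1 had a gap of 0.760 of its range, from 36.1 CPM in the second library to 31.2 CPM in the next. For Chst3 it was 0.759, from 20.1 CPM in the third library to 23.7 CPM. For Ly6a it was 0.627, from 154 CPM in the third library to 189 CPM, and for Aqp3 it was 0.626, from 231 CPM in the third library to 199 CPM. The third library was thus the extreme one for 3 of the 4 genes. Without it the Aqp3 difference between soft and stiff hydrogels in serum + PD03 had an adjusted p of 0.141 by edgeR. The Tinagl1 difference kept its call without the second library.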

How the results depend on the processing

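No paired analysis was possible because the table's columns carry no replicate numbers. Of 721 values for single genes under the alternatives, 532 kept their direction and side of the threshold. Another 189 kept the direction but missed the threshold, and none reversed. For the pool term these values hold only the smallest and largest difference of each call, not every assignment. They therefore do not show how often calls held over the assignments. Of the 52 calls, 13 passed the threshold in all pool assignments and 3 in none. The 13 include all 9 calls at 24 h, where libraries shared a pool. Fitting only the groups compared gave 4 genes at 24 h, 0 in serum + LIF at 48 h, 3 in serum, 4 for LIF on soft and 15 for LIF on stiff hydrogels. In serum + PD03 this fit gave 3 higher and 12 lower on soft, against 2.39% and 4.83% of all genes in it. In serum + LIF + PD03 it gave 8 higher and 13 lower, against 3.57% and 6.09%. Of all genes, 0.735% were higher and 2.24% lower at 24 h, and 1.46% and 2.46% in serum. Without a filter on low counts there were 4 in serum + LIF at 48 h, 5 for LIF on soft and 5 for LIF on stiff. Of all genes in that fit, 0.49% were higher and 0.242% lower in serum + LIF at 48 h. For LIF the shares were 0.107% and 0.0937% on soft and 0.251% and 0.138% on stiff. DESeq2 gave 4 in serum + LIF at 48 h, against 1.41% higher and 0.686% lower of all genes. For LIF on stiff it gave 5, against 0.807% and 0.529%. With pool as a term the counts ran from 0 to 1 in serum + LIF, 2 to 5 in serum, 4 to 12 in serum + PD03, 1 to 10 in serum + LIF + PD03, 0 to 2 for LIF on soft and 1 to 4 for LIF on stiff. The cause of these changes was not tested, apart from the fewer libraries or genes that an alternative itself uses. Leaving out 1 library gave 4 to 7 genes at 24 h, 0 to 2 in serum + LIF, 2 to 8 in serum, 8 to 13 in serum + PD03, 10 to 11 in serum + LIF + PD03, 0 to 2 for LIF on soft, 0 to 3 for LIF on stiff and 0 for the interaction. For these fits the matching counts over all genes are not given here. The number of genes chosen was 46 to 50 with a library left out, 124 with a ratio limit of 4, 31 with 8, and 35 to 63 under the other limits and scalings tried. Of the 52 calls of a gene in a comparison, 5 held under every setting, left-out library and pool assignment, namely Tinagl1 at 24 h and in both media with PD03, Spic at 24 h and Tns1 in serum. For the calls at 24 h the pool term could not alter the difference, since all libraries there shared a pool. At 48 h substrate and pool nearly coincide, which limits what the stiffness comparisons there can separate, and below about 1 CPM, where several of these genes lie without PD03, counts are few.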
